A study of Homo sapiens with 6 samples.

Results

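Open chromatin was examined around 6 genes whose products are DNA-binding factors, or partners of them: BCL11A, TCF12, JUN, TEAD4, YAP1 and WWTR1. The members are the rows of the counts table whose midpoint falls inside a fixed hg19 window around each gene. They number 83 of 118556 open regions, with 16 at BCL11A (chr2, 60.66 to 60.8 Mb), 25 at TCF12 (chr15, 57.19 to 57.6 Mb), 4 at JUN (chr1, 59.22 to 59.28 Mb), 10 at TEAD4 (chr12, 3.05 to 3.17 Mb), 11 at YAP1 (chr11, 101.96 to 102.12 Mb) and 17 at WWTR1 (chr3, 149.21 to 149.4 Mb). The values are reads per region from FAST-ATAC, an assay in which the Tn5 transposase cuts accessible DNA. All samples come from WA09, a human embryonic stem cell line, sorted into GCTM-2highCD9highEPCAMhigh cells (the high population, n = 3) and GCTM-2midCD9mid cells (the mid population, named low in the sample titles, n = 3). The mid gate was not defined on EPCAM in the labels, and 1 cell line stands for embryonic stem cells here.

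BCL11A is a zinc finger repressor, best known for silencing fetal globin genes in red blood cells. TCF12 is a basic helix-loop-helix protein of the E-protein family, which binds E-box sequences as a dimer. JUN pairs with FOS proteins, or with itself, to form AP-1, a factor rapidly induced by growth signals and stress. TEAD4 binds DNA and depends on the coactivators YAP1 and WWTR1 (also called TAZ), which carry no DNA-binding domain of their own and which the Hippo kinases keep out of the nucleus.

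The promoter letters of these genes show which of the same factors' recognition sequences lie next to their starts. RefSeq promoters (GRCh38.p14, the 250 bases before a start) were matched for 5 of the 6 genes, with 14 starts in all; TEAD4 was not matched. The counts are in hg19 and no genome of that build was used, so these sequences were not placed on the open regions. The YAP1 promoter (chr11:102110197-102110446, plus strand) is shown for its GGAATG, the core recognised by TEAD factors, 162 bases before the start. It also holds CACGTG 203 bases before the start, a match to the general E-box CANNTG, which is not particular to TCF12. Both are in capitals. A stretch of 30 bases before the JUN start (chr1:58784096-58784125, minus strand) is shown for TGACATCA, an AP-1-like sequence. For BCL11A, the 30 bases before its most downstream start (chr2:60528536-60528565, minus strand) hold TGGTCA, the reverse complement of the TGACCA letters bound by BCL11A itself.
YAP1: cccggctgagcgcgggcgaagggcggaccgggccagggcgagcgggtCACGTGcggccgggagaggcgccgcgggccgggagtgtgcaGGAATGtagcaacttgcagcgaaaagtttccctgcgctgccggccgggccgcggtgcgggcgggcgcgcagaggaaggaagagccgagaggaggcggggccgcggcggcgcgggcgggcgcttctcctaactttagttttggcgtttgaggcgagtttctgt
JUN: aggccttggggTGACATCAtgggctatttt
BCL11A: ttgtccctcccatgggttctgTGGTCAagt

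Searched on both strands, GGAATG was in 3 of the 14 member promoters and in 11.9% of all 35116 promoters of the same length. An E-box, CANNTG, was in 6 of the 14 and in 61.8% of all. TGACATCA was in 1 and in 2.37% of all, and TGACCA was in 1 and in 9.19% of all. The AP-1 consensus TGANTCA and the related TGACGTCA were in 0 of the 14, against 6.57% and 1.65% of all promoters. None of these letters overlapped another motif in the sequences shown. A match is a string of letters and not a measured binding site.

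Reads in the 83 regions came to between 13214 and 27084 per library, of 15486251 to 29025274 reads in all regions. Single regions held between 14 and 4800 reads per library. Values are given as CPM, reads scaled to library size with TMM factors, and differences as log2 fold changes of high over mid from edgeR's quasi-likelihood test over all 118556 regions, with the replicate number as a block. A region was called at a Benjamini-Hochberg adjusted p under 0.01. Mid replicate 1 was the highest of the 3 mid libraries in 42 of the 83 regions (50.6%), against 39.8% of all regions, and in all 6 of the most-read regions described next. Cell identity was not checked from marker genes, because no hg19 annotation was used to place them, and the other AP-1, TEAD, Hippo and E-protein genes were not analysed here for the same reason.

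Between the populations, 1 of the 83 regions was called, a small region in the TCF12 window with more reads in mid cells. No region was called toward the high population with this test. Over all regions, 2.32% were called toward the high population and 3.77% toward the mid population. At an unadjusted p under 0.05, 3 members were higher in high cells and 9 in mid cells, or 3.61% and 10.8%, against 14.2% and 13.6% of all regions. The median log2 fold change of the members was 0.08, against 0.03 for all regions, and 48 of the 83 were above 0 (57.8%, against 53.5%). Leaving out the replicate 3 pair turned the members' median to -0.03, with 43 of the 83 below 0. In edgeR fits with the block, a library whose same-numbered partner is left out no longer informs the difference. Leaving out 1 library therefore nearly repeats leaving out its pair. The members' medians without high replicate 3 or mid replicate 3 alone were -0.02 and -0.03. Scaling by total counts gave a members' median of 0.17, against 0.12 for all regions. Groups did not overlap in 4 members with every high library above every mid library (4.82%, against 12.9% of all regions) and in 5 with every high library below (6.02%, against 13% of all regions). The 95% interval of the log2 fold change lay within a 2-fold change in either direction for 76 of the 83 regions, and within 1.5-fold for 41. Standard errors ran from 0.11 to 0.33 on the log2 scale with a median of 0.21, so that smaller differences at most single regions were not detectable with these libraries.

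**Figure D1:**
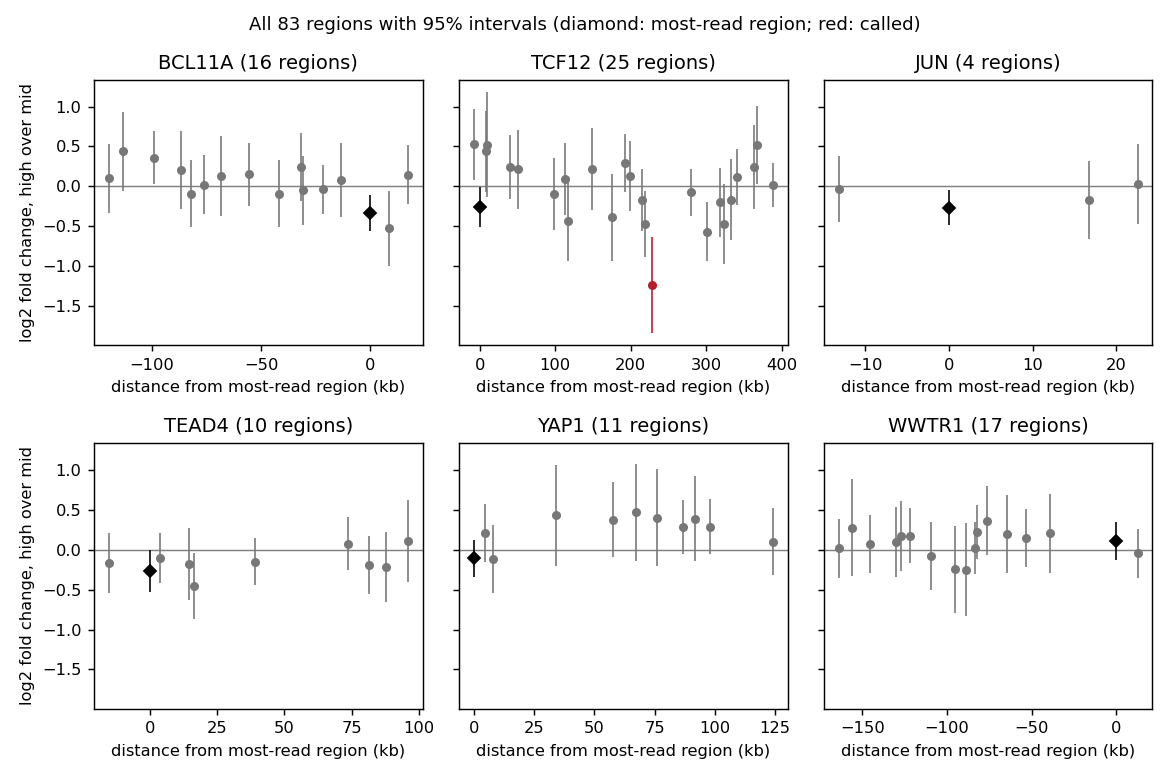
Log2 fold change of high over mid (vertical axis) of each of the 83 regions against its distance in kb from the most-read region of its locus (horizontal axis), with 95% intervals. Diamonds mark the most-read regions, and the single called region, at TCF12, is in red at -1.24.

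Each locus held a wide region that took more reads than any other in its window. These 6 regions were between 2841 and 7765 bp wide, and averaged 35.8 to 126 CPM. In 5 of the 6 the estimate was lower in the high population, with a median log2 fold change of -0.26 over the 6, although scaling by loess offsets fitted on average log2 CPM, rather than by TMM, turned those of BCL11A (0.02), JUN (0.11) and YAP1 (0.19) above 0. None was called with TMM, and loess offsets called that of WWTR1 toward high cells (log2 fold change 0.39, edgeR adjusted p = 0.0081). Across the table, 5547 regions were at least as wide as the narrowest of them. Of those, with TMM, 29.4% were called toward the mid population and 1.08% toward the high population. An estimate below 0 was found for 79.4%, with a median log2 fold change of -0.30. Every high library lay below every mid library in 51.2% of these wide regions, against 2 of the 6 members. The values for wide regions were not computed with loess offsets.

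The BCL11A region (chr2:60775881-60783645, 7765 bp) had 102, 90.0 and 81.9 CPM in high replicates 1, 2 and 3, and 143, 104 and 103 CPM in mid replicates 1, 2 and 3. Every high library lay below every mid library, high replicate 1 by little. Means were 91.5 ± 10.4 CPM in high cells and 116 ± 22.9 in mid cells (SD, n = 3), a log2 fold change of -0.34 (standard error 0.11, edgeR adjusted p = 0.0347), which missed the threshold. Of all 83 members this region had the largest number of reads but 1, that of JUN. In bulk libraries such as these, fewer cells with the region open and less cutting per cell cannot be told apart.

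The JUN region (chr1:59244488-59251906, 7419 bp) was the most-read member, with 134, 108 and 99.2 CPM in the high replicates and 180, 118 and 117 CPM in the mid replicates. High replicate 1 exceeded mid replicates 2 and 3, so the groups overlapped, although the high library was the lower in all 3 same-numbered pairs. The log2 fold change was -0.27 (standard error 0.11, edgeR adjusted p = 0.0958). The remaining 3 JUN regions were narrow, at 608 to 890 bp, and their log2 fold changes lay between -0.17 and 0.03. JUN thus had nearly all of its reads in 1 region, 92.7% ± 1.35 in high cells and 93.5% ± 1.64 in mid cells (SD, n = 3).

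At TCF12 the most-read region (chr15:57209671-57212511, 2841 bp) had 34.2, 32.9 and 30.8 CPM in the high replicates and 42.2, 38.5 and 36.3 CPM in the mid replicates. The groups did not overlap, and the log2 fold change was -0.26 (standard error 0.13, edgeR adjusted p = 0.168). TEAD4 (chr12:3067227-3071330, 4104 bp) had 34.2, 33.0 and 36.4 CPM against 51.1, 41.4 and 34.2 CPM. Here the groups overlapped, since high replicate 3 exceeded mid replicate 3, and the log2 fold change was -0.27 (standard error 0.13, edgeR adjusted p = 0.164). It was -0.13 without the replicate 1 pair and -0.45 without the replicate 3 pair.

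For the coactivator genes the most-read regions were close to 0 with TMM, while loess offsets put them at 0.19 (YAP1) and 0.39 (WWTR1). That of YAP1 (chr11:101979979-101983654, 3676 bp) had 76.9, 67.2 and 54.1 CPM in the high replicates and 74.1, 72.8 and 65.2 CPM in the mid replicates, a log2 fold change of -0.11 (95% interval -0.34 to 0.12). That of WWTR1 (chr3:149374085-149377517, 3433 bp) had 71.3, 62.6 and 62.4 CPM against 72.2, 53.7 and 57.4 CPM, a log2 fold change of 0.11 (95% interval -0.13 to 0.34). Both overlapped widely between the populations. Per kb and averaged over all 6 libraries, the levels were 18.6 CPM at YAP1, 18.4 at WWTR1, 17.0 at JUN, 13.4 at BCL11A, 12.6 at TCF12 and 9.36 at TEAD4. The order of the first 3 was not the same in both populations: per kb, WWTR1 (19.1 CPM) was above YAP1 (18.0) and JUN (15.3) in high cells, and YAP1 (19.2 CPM) above JUN (18.7) and WWTR1 (17.8) in mid cells. For all 6 regions the 95% interval with TMM lay inside a 1.5-fold change in either direction.

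**Figure D2:**
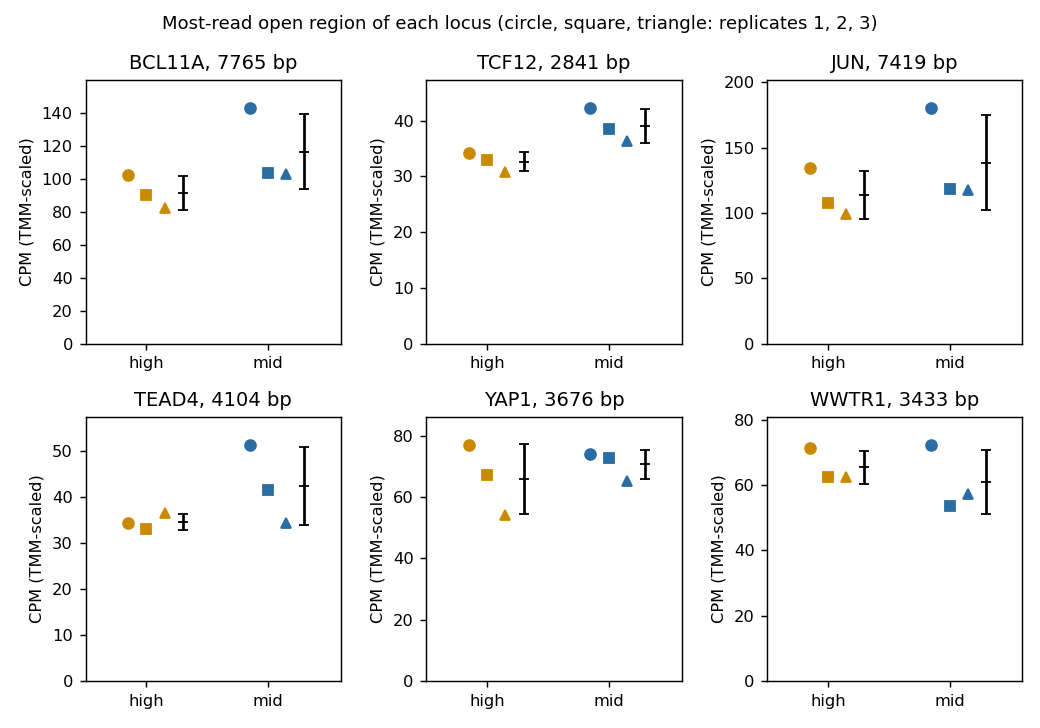
TMM-scaled CPM (vertical axis) of the most-read region of each locus in the 3 high and 3 mid libraries, with mean and SD beside them. At BCL11A and TCF12 every high library lay below every mid library on this scale (the BCL11A estimate turned with loess offsets), and in each of the 6 panels the circle of mid replicate 1 is the highest mid value.

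The called region lay at chr15:57438595-57439138 (544 bp), 228 kb from the most-read TCF12 region. It had 1.20, 0.861 and 1.07 CPM in the high replicates, from 21, 14 and 29 reads, and 3.49, 1.77 and 2.30 CPM in the mid replicates, from 93, 41 and 60 reads. Every mid library lay above every high library. The region was 2.36-fold higher in the mid population (log2 fold change -1.24, standard error 0.30, edgeR adjusted p = 0.00342), and was the only member past a 2-fold difference. It was also among the less-read regions, at percentile 8.26 of all regions by mean CPM. With no replicate block the adjusted p was 0.0275, and DESeq2 gave 0.0449, so the call was lost in both. Without the replicate 1 pair the log2 fold change was -1.09 (edgeR adjusted p = 0.0352) and without the replicate 2 pair -1.31 (edgeR adjusted p = 0.0288). The fits without high replicate 1, high replicate 2, mid replicate 1 or mid replicate 2 nearly repeat these, and also lost the call (edgeR adjusted p between 0.0249 and 0.0417). The call was kept without the replicate 3 pair (edgeR adjusted p = 0.00946) but lost without mid replicate 3 alone (edgeR adjusted p = 0.0123).

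Another TCF12 region further on, 301 kb from the most-read one (chr15:57510981-57512208, 1228 bp), chosen after its values were seen, had 5.31, 5.72 and 5.89 CPM in the high replicates and 10.4, 8.14 and 6.90 CPM in the mid replicates. The groups did not overlap, and the log2 fold change was -0.57 (standard error 0.18, edgeR adjusted p = 0.0324). At an adjusted p under 0.05, this region, the called one and the most-read BCL11A region were the 3 members past the threshold, all higher in the mid population. The largest estimate toward the high population among all members was near the start of the TCF12 window (chr15:57202815-57203722, 908 bp), at -7.82 kb from the most-read TCF12 region. This region had 4.62, 5.48 and 2.89 CPM against 4.02, 2.34 and 2.53 CPM. It overlapped between groups and its log2 fold change of 0.53 was not called (standard error 0.22, edgeR adjusted p = 0.106), and was 0.20 without the replicate 2 pair. TCF12 regions were thus spread from -1.24 to 0.53, with 13 of the 25 above 0 and a median of 0.02.

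Of the 15 other BCL11A regions 5 were below 0, and their median was 0.10, with none called. The region at chr2:60680043-60681594 (1552 bp), picked after its values were seen as the only BCL11A region with every high library above every mid library, had 10.7, 13.4 and 11.9 CPM in the high and 9.65, 8.27 and 10.04 CPM in the mid replicates. Its log2 fold change was 0.36 (standard error 0.17, edgeR adjusted p = 0.145). The largest estimate upward in this window was at chr2:60666412-60667105 (694 bp), with 3.25, 3.32 and 2.93 CPM against 1.31, 2.94 and 2.95 CPM. There mid replicate 1 alone was low and the other libraries were alike, and the log2 fold change was 0.44 (standard error 0.25, edgeR adjusted p = 0.242), or 0.05 without the replicate 1 pair. On the opposite side, the region nearest to the most-read one (chr2:60787831-60788446, 616 bp) had 3.82, 1.66 and 1.85 CPM against 4.13, 3.59 and 2.61 CPM. Its log2 fold change was -0.53 (standard error 0.24, edgeR adjusted p = 0.131), or -0.29 without the replicate 2 pair and -0.80 without the replicate 1 pair.

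**Figure D3:**
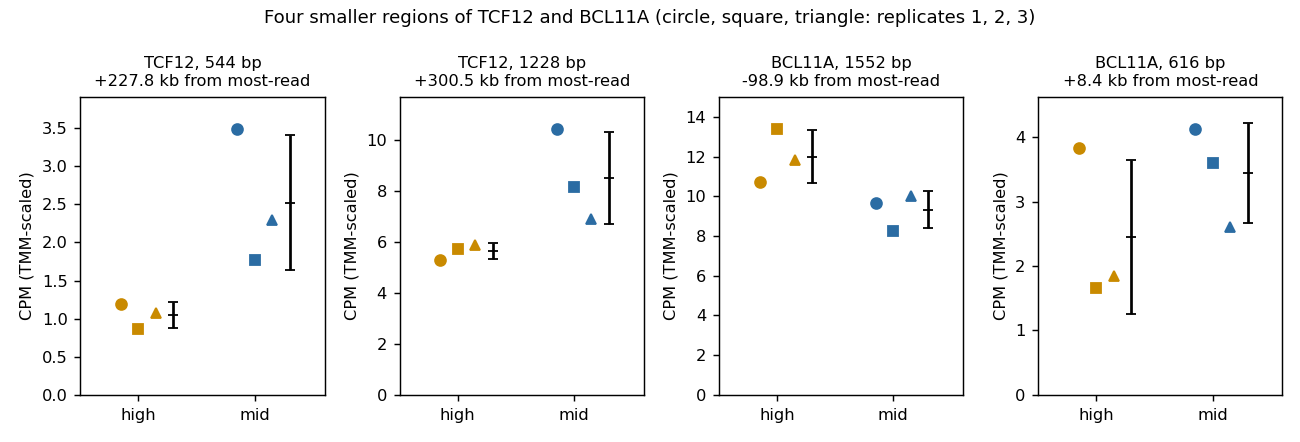
TMM-scaled CPM (vertical axis) of 4 smaller regions in the 3 high and 3 mid libraries, with mean and SD beside them. The 2 TCF12 regions and the 1552 bp BCL11A region do not overlap between groups, and the 616 bp BCL11A region does.

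The TEAD4, YAP1 and WWTR1 windows held no called region, and their smallest adjusted p-values were 0.135, 0.262 and 0.274 (edgeR). At TEAD4, the DNA-binding member, 8 of the 10 estimates were below 0, against 46.5% of all regions, but the pairs differed: 9 of the 10 regions were below 0 in pair 1, 8 in pair 2 and 1 in pair 3. The lowest estimate was at chr12:3085164-3086404 (1241 bp) with 2.97, 3.57 and 4.44 CPM against 4.36, 6.10 and 4.71 CPM. That is a log2 fold change of -0.45 (standard error 0.21). High replicate 3 there exceeded mid replicate 1, so the groups overlapped. The highest TEAD4 estimate was 0.11, at chr12:3164812-3165499 (688 bp), and it changed sign with samples left out.

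At YAP1, 9 of the 11 estimates were above 0, against 53.5% of all regions, and their median was 0.29. None was called, and the highest was 0.47 (standard error 0.30) at chr11:102048891-102049440 (550 bp), with 2.68, 1.72 and 1.48 CPM against 1.80, 1.69 and 0.843 CPM. The smallest adjusted p of the window belonged to chr11:102079327-102080687 (1361 bp), with 11.7, 9.35 and 11.4 CPM against 12.2, 6.23 and 8.82 CPM, where the groups overlapped and the log2 fold change was 0.29. Below 0 were the most-read region and chr11:101989220-101990150 (931 bp), at -0.12. WWTR1, the paralog of YAP1, had 13 of 17 estimates above 0 and a median of 0.11, but the pairs differed. Above 0 were 6 of the 17 regions in pair 1, 15 in pair 2 and 13 in pair 3. Estimates ranged from -0.25 (chr3:149286570-149287109, 540 bp, and -0.05 without the replicate 3 pair) to 0.36 (chr3:149299268-149300195, 928 bp).

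Summed over all regions of a window, the populations overlapped at each of the 6 loci. The BCL11A sum was 170 ± 13.2 CPM in high cells and 190 ± 22.6 in mid cells (SD, n = 3), and the JUN sum 123 ± 18.0 and 148 ± 36.0. In all 3 same-numbered pairs the high library was the lower for both loci with TMM, while loess offsets put the mean differences at 0.04 and 0.10. TEAD4 summed to 104 ± 15.002 and 118 ± 10.1 CPM, and TCF12 to 155 ± 5.46 and 164 ± 22.4. YAP1 summed to 115 ± 12.9 and 112 ± 8.51 CPM, and WWTR1 to 160 ± 3.32 and 151 ± 19.8. Log2 differences of high minus mid ran from -0.25 at JUN to 0.09 at WWTR1. Without mid replicate 1 those of JUN and BCL11A were -0.06 and -0.07, against -0.25 and -0.16 with it, and without mid replicate 2 that of WWTR1 was 0.03. The TEAD4 difference of -0.18 was -0.05 without the replicate 1 pair and -0.36 without the replicate 3 pair. The two-sided exact permutation p lay between 0.2 and 0.8 for the 6 loci (0.6 to 0.8 after Benjamini-Hochberg adjustment over them). With 3 samples against 3 this test cannot go below 0.1.

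Within a locus, the share of reads in the most-read region does not depend on any single scaling factor per library. Loess offsets, which vary with a region's level, do move it. They gave BCL11A a log2 difference of 0.02 in its most-read region and 0.06 in the sum of the others, against -0.34 and 0.08 with TMM. For YAP1 the loess values were 0.19 and 0.22, against -0.11 and 0.26 with TMM. For TCF12 they were -0.05 and -0.02, against -0.26 and -0.03 with TMM. At BCL11A the share was 56.8, 51.9 and 52.9% in the high replicates and 66.2, 57.3 and 59.3% in the mid replicates, a difference of -7.06 percentage points with no overlap. At YAP1 it was 60.5, 57.7 and 53.4% against 61.2, 66.0 and 62.5%, a difference of -6.07 points, and at TCF12 22.1, 22.0 and 19.3% against 22.2, 25.3 and 24.1%, a difference of -2.75 points, again with no overlap. For each of these 3 loci the exact permutation p was 0.1, the smallest possible, and 0.2 after adjustment over the 6 loci, so none passed a threshold of 0.05. TEAD4 (-2.12 points), JUN (-0.84) and WWTR1 (0.44) overlapped between the populations.

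The remaining regions of each window were also summed without the most-read one. At YAP1 the 10 other regions came to 50.3, 49.3 and 47.3 CPM in the high replicates and 47.0, 37.5 and 39.1 CPM in the mid replicates, where high replicate 3 and mid replicate 1 were nearly equal. The log2 difference was 0.26 (two-sided exact permutation p = 0.1, the smallest possible, and 0.6 after Benjamini-Hochberg adjustment over the 6 loci). With RLE, upper quartile and loess scaling the groups overlapped and the exact permutation p was 0.2. BCL11A without its most-read region came to 78.1 ± 5.22 CPM in high cells and 73.6 ± 3.42 in mid cells (SD, n = 3), a log2 difference of 0.08 (two-sided exact permutation p = 0.2), above 0 in all 3 pairs with TMM. Without high replicate 2 it was 0.04. With loess offsets the BCL11A differences were 0.04 for the whole locus and 0.06 without the most-read region, both above 0. The difference was 0.08 at WWTR1, -0.03 at TCF12, -0.06 at JUN and -0.14 at TEAD4, with the 3 pairs of mixed sign at each; total counts in place of TMM turned TCF12 and JUN to 0.06 and 0.03. Across the 83 members, log2 fold change and width correlated with a Spearman's rho of -0.179, and across the 77 that were not the most-read of their locus with -0.0814; these regions share libraries and windows, and the values are descriptions only.

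**Figure D4:**
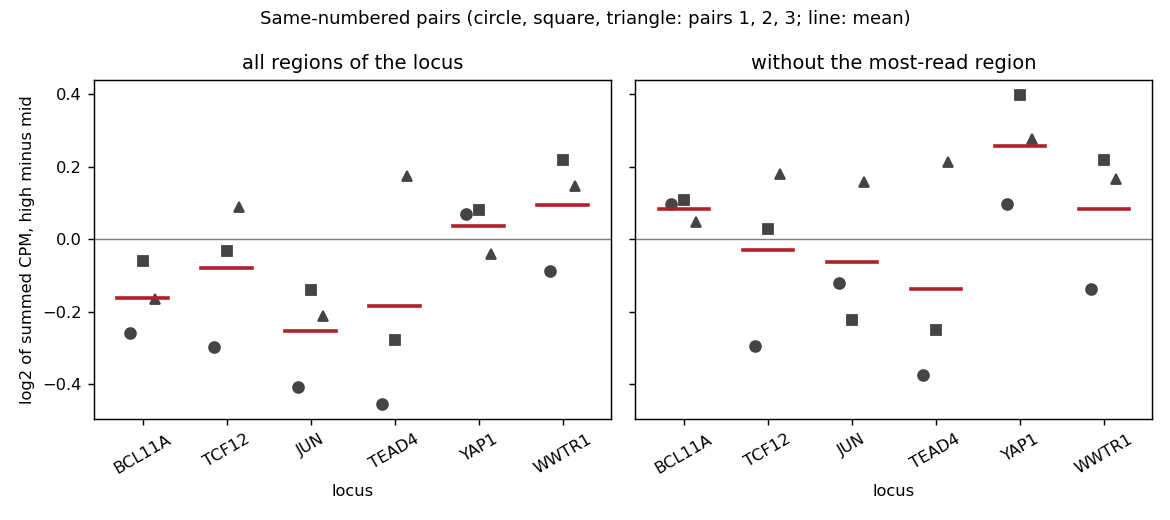
Log2 of summed CPM, high minus mid (vertical axis), of the 3 same-numbered pairs at each locus, over all regions (left) and without the most-read region (right), with the mean as a line. On the left all 3 pairs are below 0 at BCL11A and JUN (both means turned with loess offsets), and on the right all 3 are above 0 at BCL11A and YAP1 with TMM.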

How the data were processed

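FAST-ATAC libraries of the high and mid populations (3 replicates each) were analysed as raw counts per open region, the only deposited file. Per the study's methods and processing notes, the authors used Trimmomatic, then BWA 0.7.15 against hg19, dropped duplicate reads and moved read ends to where Tn5 had cut. MACS (1.4.2 in the notes) was run on replicates pooled within a population, and the authors deposited counts over the union of both region sets.

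Here R 4.3.3, edgeR 4.0.16 (TMM, quasi-likelihood test, no filter, block of 3 replicate levels), limma 3.58.1 (loess span 0.3) and DESeq2 1.42.0 were used. Standard errors are the absolute log2 fold change over the square root of F. The fit was tested on simulated data. Starts are 1-based. Replicate numbers come from the titles. Deviations from the group mean correlated across regions with r of 0.202 to 0.308 for same-numbered libraries. For high and mid libraries of different number r was -0.256 to 0.0626, so the numbers were taken as pairs. The study's methods state 3 biological replicates of each population, and the labels do not state separate cultures. The permutation p-values compare these samples only. The edgeR p-values and intervals rest on a spread between libraries that the fit estimates largely by pooling over regions, and less on a region's own spread. Promoters are RefSeq. The motif counts cover all 14 starts, including those that overlap a GENCODE 44 UTR. A sequence that overlaps such a UTR is printed for at most 30 bases. Members and lists were chosen with earlier results of these data known. Named in each window were the most-read region, any called region, otherwise that with the smallest p, and the largest log2 fold change each way; 2 others are marked in the text. Alternatives covered block, batch, test, scaling, filter, threshold and left-out samples. Total counts per library ran from 15486251 to 29025274, and the standard errors cover counting error together with the spread between libraries that the fit estimates.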

Additional observations from a re-analysis of the deposited data

How the results depend on the processing

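Against 1 region called toward mid cells and 0 toward high cells, no replicate block gave 0 mid calls, DESeq2 gave 0, and the threshold of 0.05 gave 3. Loess offsets on average log2 CPM called 1 high region, the most-read WWTR1 region. With a pair or a sample left out, the mid count ran from 0 to 1 and the high count stayed at 0. The cause was not tested. Batch coding, the likelihood ratio test, the filter, RLE, upper quartile and total-count scaling left both counts as they were.

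As log2 differences, loess offsets turned the most-read regions of BCL11A (0.0152), JUN (0.113) and YAP1 (0.186), the 608 bp JUN region (-0.0562), and the locus sums of BCL11A (0.0353) and JUN (0.0961). Total counts only, which put the median of all regions at 0.12 against 0.03 with TMM, turned the TCF12 sum (0.0110) and the sums without the most-read region of JUN (0.0292) and TCF12 (0.0621). With samples left out, values that changed sign ran from -0.196 to 0.222 for the 608 bp JUN region, from -0.0837 to 0.432 for the 688 bp TEAD4 region, from -0.218 to 0.0293 for the 931 bp YAP1 region, from -0.165 to 0.0291 for the TCF12 sum, from -0.0387 to 0.124 for the YAP1 sum, and from -0.343 to 1.04 percentage points for the WWTR1 share. For the sums without the most-read region, chosen after seeing the data, the ranges were -0.171 to 0.0246 at JUN and -0.133 to 0.104 at TCF12. No region that turned was called at an adjusted p under 0.01 in any setting. At 0.05 the most-read BCL11A region was past the threshold with TMM (edgeR adjusted p = 0.0347). That of JUN was past it with upper quartile factors (edgeR adjusted p = 0.0418). The permutation test of the sums and shares cannot go below 0.1. The YAP1 sum without its most-read region stayed above 0 under the 4 scalings and with each pair or sample left out, from 0.186 to 0.355. With the replicate block, by same-numbered pairs, the locus sums had an exact permutation p of 0.25 to 0.75, where 0.25 is the smallest that 3 pairs allow.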
